A study of Homo sapiens with 6 samples.

Results

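Aminoacyl-tRNA synthetases join each amino acid to its tRNA, the step that sets which residue a codon stands for during translation. Human cells keep separate enzymes for the cytosol and for the mitochondrion, all encoded in the nucleus, and several cytosolic enzymes are bound together in a multi-synthetase complex held by scaffold proteins. In the gene names the letter before "ARS" is the one-letter code of the amino acid, and a final 2 marks the mitochondrial enzyme; EPRS charges both glutamate and proline in the cytosol. Several cytosolic synthetase genes are known targets of ATF4, the transcription factor that answers amino acid shortage and other stresses through the integrated stress response.

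The family was taken as 36 genes, chosen by symbol among the 30717 genes of the count table: 20 cytosolic genes, of which 8 encode members of the multi-synthetase complex and 12 encode enzymes outside it, and 16 mitochondrial genes. The symbols are the older forms used in the table (AARS for the gene now called AARS1). KARS and GARS, placed with the cytosolic genes, also make the mitochondrial lysyl and glycyl enzymes. The family was taken up with earlier results of these data in view, among them the lower level of AARS in the T24 knockdown libraries, so that value, and each difference built on it, is described here without a test. All 36 genes passed the filter on low counts, and each except RARS2 averaged 5 CPM or more (CPM are counts scaled to the size of the library).

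RNA was sequenced from UMUC3 and T24 cells, both established lines of human bladder cancer, in which circPTK2, a circle of RNA that comes from the PTK2 gene, was knocked down or which served as controls. There were 2 UMUC3 knockdown libraries against 1 UMUC3 control library, and 2 T24 knockdown libraries against 1 T24 control library. Knockdown libraries are called 1 and 2 after the siRNA number in their titles; the design text speaks of sh constructs instead, which leaves the reagent uncertain. For T24, title and data column carry opposite numbers. No genotype change, drug or time after knockdown is given for any group, no other treatment of the controls is named, and separate cultures for the paired knockdown libraries are not mentioned. The p-values therefore cover the spread between these libraries alone, and that spread may be technical. circPTK2 shares exons with linear PTK2 RNA, so its depletion could not be read from these counts.

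Total counts were 65111683 to 72362436 per library, and 14.9 to 16.1% of them lay in table rows with no gene, which were left out. The urothelial markers summed to 92.5 to 106 CPM in UMUC3 and 1041 to 1221 CPM in T24, and 10 of the 11 were in the table. The keratin KRT18 made 84.3 to 95.9 CPM of the UMUC3 sums, and GATA3, PPARG, KRT7 and ELF3 each read at most 4.94 CPM there. In T24 KRT18 made 389.4 to 835.1 CPM and KRT7 170.9 to 707.9 CPM. The uroplakin genes UPK1A, UPK1B and UPK2 and the keratins KRT20 and KRT5 stayed at or near 0 in both lines. Immune markers (3 of 5 in the table) summed to at most 0.895 CPM in UMUC3 and 5.13 CPM in T24. Endothelial and stromal markers (3 of 5) summed to at most 1.02 CPM in UMUC3 and to 65.3 to 76.9 CPM in T24, of which CDH5, a cadherin of endothelial cells, made 64.5 to 75.5 CPM. In bulk RNA, fewer cells of a type and less RNA per cell cannot be told apart.

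Promoter sequence is shown for the members that carry TGATGNAA, the core of the C/EBP-ATF response element that ATF4 and its partners are known to bind, because YARS2, the mitochondrial member with the largest knockdown fold in UMUC3, has it. Of the 36 members, 29 were searched through their entry in the RefSeq promoter table (GRCh38.p14), over the 250 bases before each gene start and on both strands. TGATGNAA was found in 3 of these 29 members, against 3.14% of the 35116 promoters in the table. Capitals mark the match, and each sequence runs 5′ to 3′ on the strand of its gene; in IARS and GARS the match reads on the opposite strand. The YARS2 stretch is chr12:32756057-32756124, minus strand, with the match 197 to 190 bases before the start. The IARS stretch is chr9:92293698-92293740, minus strand, with the match 13 to 6 bases before the start, and the GARS stretch is chr7:30594815-30594877, plus strand, with the match 33 to 26 bases before the start.
YARS2: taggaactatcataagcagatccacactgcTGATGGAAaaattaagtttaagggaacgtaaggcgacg
IARS: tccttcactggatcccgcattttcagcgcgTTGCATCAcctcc
GARS: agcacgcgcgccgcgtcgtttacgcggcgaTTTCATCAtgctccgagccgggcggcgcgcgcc

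The 3 genes did not share a pattern in the counts. In UMUC3 the log2 fold change of knockdown over control was 2.42 ± 1.13 for YARS2, -0.11 ± 0.09 for IARS and 1.06 ± 0.38 for GARS (edgeR estimate ± standard error). Each standard error of an edgeR estimate was derived from its test, as the absolute estimate over the square root of the F statistic. At most 0.7% of the GARS counts lay in protein-coding transcripts in any library, so the GARS value does not measure its coding mRNA. CACGTG, an E-box, was found in 3 of the 29 members (IARS, EARS2 and MARS2), against 6.34% of all promoters, and GCATGCGC, a core of the NRF1 site, in 2 (MARS2 and YARS2), against 2.63%. A match is a description of letters only.

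Levels were compared between genes per length, as TPM (transcripts scaled to a fixed total per library) computed from the count and length of each transcript. The cytosolic genes summed to 2533 and 2733 TPM in the UMUC3 knockdown libraries against 2334 TPM in the UMUC3 control. In T24 the sums were 2211 and 2240 TPM in the knockdown libraries against 2425 TPM in the T24 control. The mitochondrial genes summed to 423 and 421 TPM in the UMUC3 knockdown libraries against 400.0 TPM in the UMUC3 control. In T24 the sums were 384 and 474 TPM in the knockdown libraries against 447 TPM in the T24 control. The cytosolic sum was thus 4.73 to 6.50 times the mitochondrial sum in every library.

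Per length, the highest cytosolic genes were SARS, KARS and TARS, which charge serine, lysine and threonine, with means over the 6 libraries of 224 ± 33.3, 207 ± 50.8 and 186 ± 23.8 TPM (SD, n = 6 libraries of 4 groups). The lowest were NARS, FARSB and GARS, at 27.1 ± 12.2, 35.3 ± 10.7 and 35.7 ± 13.2 TPM. The GARS level does not measure its coding mRNA, because nearly all its counts lay in other transcripts. FARSB is the beta chain of phenylalanyl-tRNA synthetase, and FARSA, its alpha chain, averaged 133 ± 26.7 TPM. Among mitochondrial genes IARS2 for isoleucine was highest, at 101 ± 20.7 TPM, followed by CARS2 for cysteine at 52.5 ± 7.91 TPM and SARS2 for serine at 32.4 ± 5.64 TPM. The lowest were RARS2, PARS2 and WARS2, for arginine, proline and tryptophan, at 5.03 ± 1.87, 6.40 ± 1.54 and 7.99 ± 3.32 TPM. Neighbours in each of these orders lay within 1 SD of each other (the larger SD of the pair), apart from IARS2 and CARS2, and CARS2 and SARS2.

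**Figure D1:**
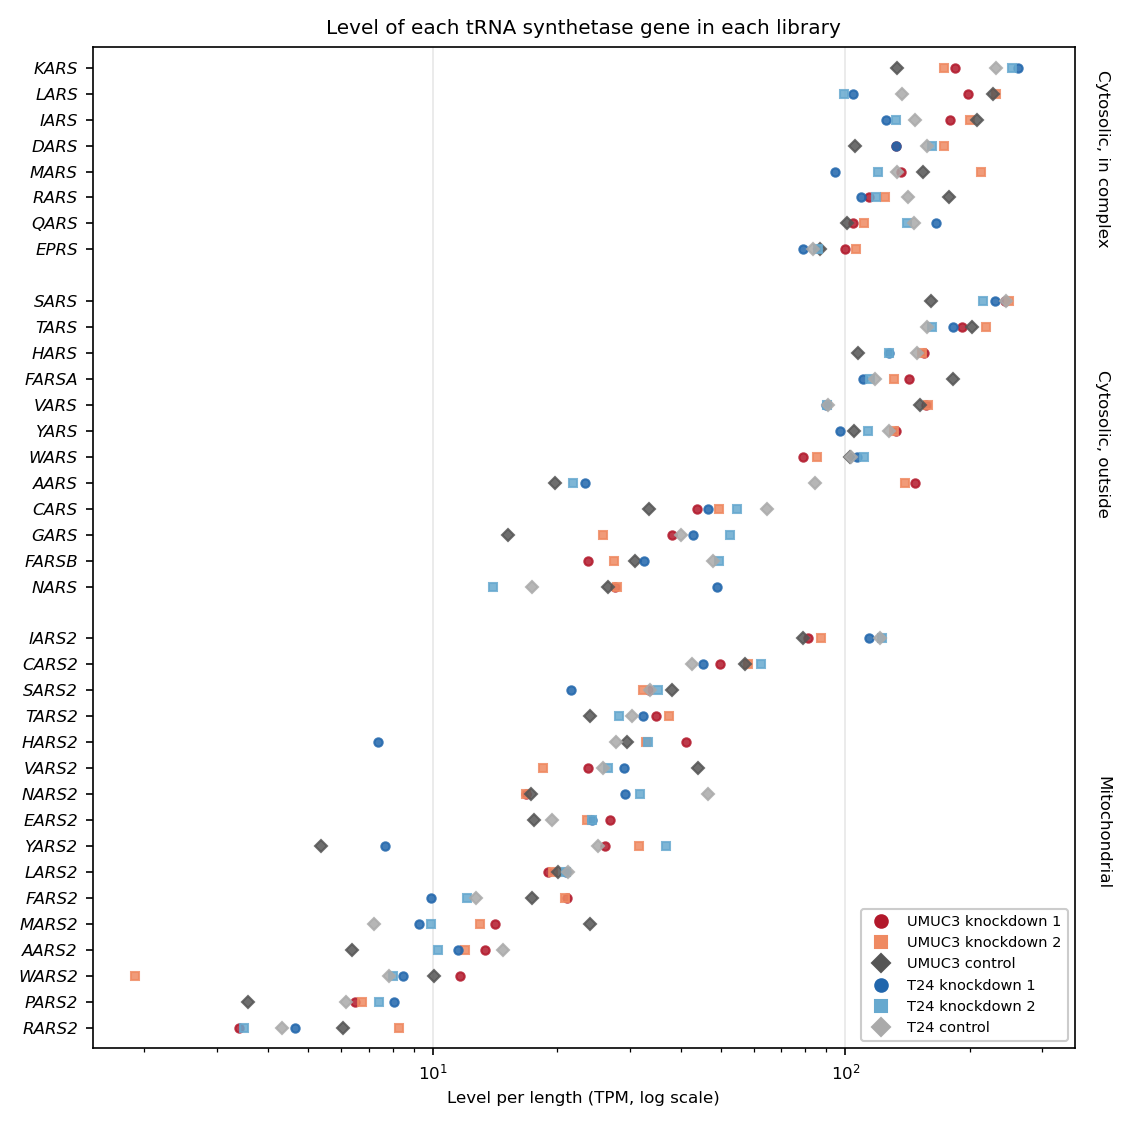
Level per length (TPM, log axis) of the 36 synthetase genes, grouped by class and ordered by mean; each symbol is 1 library. The mitochondrial genes lie mostly below the cytosolic ones, and the AARS symbols fall in separate clusters from 19.8 to 23.5 TPM and from 84.6 to 147.8 TPM.

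For most amino acids the cytosolic gene was the higher of the pair in all 6 libraries. The exceptions were CARS over CARS2, with a ratio above 1 in 2 of the 6 libraries, and NARS over NARS2, with 4 of 6. IARS and IARS2 lay closest among the rest in T24, with ratios of 1.10 and 1.08 in the knockdown libraries against 1.21 in the control; in UMUC3 they were 2.21 and 2.31 in the knockdown libraries against 2.64 in the control. The AARS to AARS2 ratio was 11.0 and 11.6 in the UMUC3 knockdown libraries against 3.11 in the UMUC3 control. In T24 the ratio was 2.04 and 2.12 in the knockdown libraries against 5.72 in the T24 control. The alanine pair therefore had a higher ratio in both knockdown libraries of UMUC3 and a lower one in both of T24.

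The first comparison asked which members changed when circPTK2 was knocked down, with each line set against its own control. AARS stood apart from every other member. It reached 257 and 230 CPM in the UMUC3 knockdown libraries against 24.2 CPM in the UMUC3 control, 10.1-fold higher by the mean of the pair. It read 27.5 and 27.5 CPM in the T24 knockdown libraries against 129.8 CPM in the T24 control, 0.212 of the control. Neither line's knockdown libraries overlapped the control, and the directions were opposite. AARS (ENSG00000090861, GRCh38 chromosome 16, 70252295 to 70289543, minus strand) encodes the cytosolic alanyl enzyme.

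**Figure D2:**
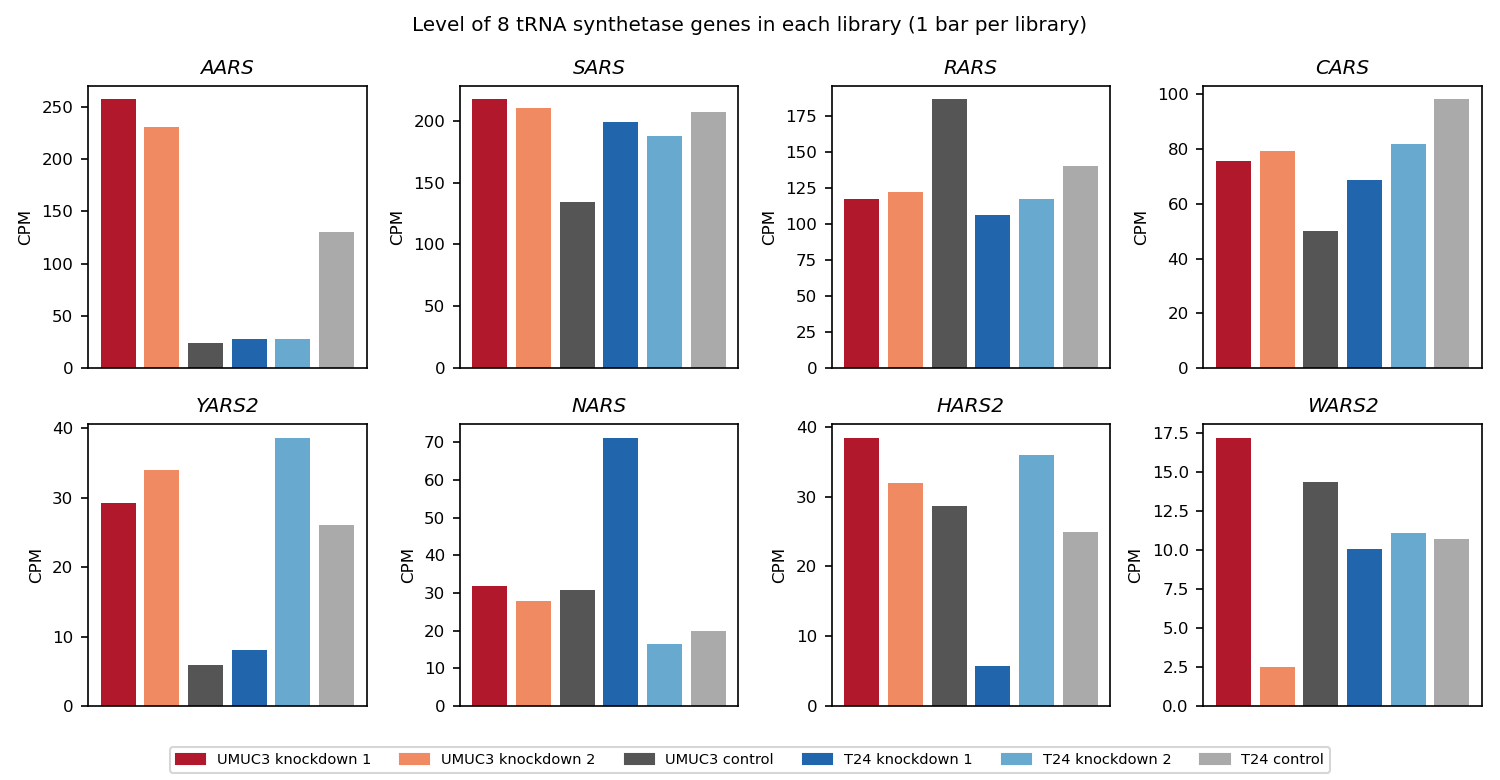
CPM of 8 synthetase genes, 1 bar per library and an axis from 0 for each gene. AARS is high in the UMUC3 knockdown libraries (257 and 230 CPM) and the T24 control (129.8 CPM); NARS, HARS2 and WARS2 each have 1 knockdown library far from the other.

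By edgeR's quasi-likelihood test, fitted to all 20721 tested genes with Benjamini-Hochberg adjustment at 0.05, AARS was the 1 member that rose in UMUC3 (log2 fold change 3.33 ± 0.14, adjusted p = 0.0237), against 0.43% of all tested genes called higher there. Its log2 fold change was -2.24 ± 0.12 in T24, and 5.57 ± 0.19 for UMUC3 minus T24, both given without a test because the T24 value was in view. Of the other 35 members edgeR called 0 in T24 and 0 in the difference between the lines, against 0.135% and 0.0579% of all genes. An unadjusted p was under 0.05 for 15 of the 35 in UMUC3, 2 in T24 and 9 in the difference, against 16.8%, 12.5% and 13.5% of all genes. Of the 20 cytosolic genes, AARS included, 11 had such a p in UMUC3. DESeq2 called 0 of the 35 in T24, against 4.73% of all genes, and 4 in the difference (SARS, CARS and AARS2 higher, MARS2 lower), against 5.41%, and limma-voom 0 in each. With both lines fitted together the log2 fold change of AARS was -0.42 ± 1.41. Each line has 1 control, whose spread is taken from the knockdown pairs. Without any 1 of the 4 knockdown libraries edgeR called 0 of all 20721 genes in UMUC3 (2843 to 2981 had an unadjusted p under 0.05), so the call of AARS there needs all 4.

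The count of AARS lay mainly in its main coding transcript, which held 97.9 and 98.0% of it in the UMUC3 knockdown libraries against 84.4% in the UMUC3 control. In T24 it held 85.7 and 89.0% in the knockdown libraries against 96.8% in the T24 control. ENST00000261772, which is 3477 bases long, had 14114 and 13739 counts in the UMUC3 knockdown libraries against 1141 in the UMUC3 control. The T24 counts were 1403 and 1455 in the knockdown libraries against 7466 in the T24 control. ENST00000569825, which keeps an intron, had 284 and 212 counts in the UMUC3 knockdown libraries against 197 in the UMUC3 control. The T24 counts were 203 and 147 in the knockdown libraries against 222 in the T24 control. The coding transcript followed the gene, whereas the intron-keeping one spanned less than its own lowest value across all 6 libraries. Among the 15038 table rows without a gene, 26 had at least 500 counts in each of the 3 libraries where AARS was low and over 2-fold more there than in any other library, and 18 had the reverse pattern; whether reads of AARS lie in such rows was not tested.

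Among the other cytosolic genes in UMUC3, SARS, for serine, came nearest to the threshold. It had 217 and 211 CPM in the UMUC3 knockdown libraries against 134.5 CPM in the UMUC3 control (log2 fold change 0.67 ± 0.10, edgeR adjusted p = 0.0873), and 199 and 188 CPM in the T24 knockdown libraries against 207 CPM in the T24 control (-0.10 ± 0.09, adjusted p = 0.716). CARS, for cysteine, had 75.6 and 79.3 CPM in the UMUC3 knockdown libraries against 49.99 CPM in the UMUC3 control. The T24 knockdown libraries had 68.6 and 81.7 CPM against 98.1 CPM in the T24 control. Its difference between the lines was 1.02 ± 0.23 (adjusted p = 0.227). SARS and CARS both lay above the control in UMUC3 and below it in T24, as AARS did, without passing edgeR's test in either line. DESeq2 called SARS higher in UMUC3, against 8.28% of all genes, and both in the difference. On composition-stable genes alone (genes whose counts stayed with the same transcripts across libraries) edgeR called SARS higher in UMUC3, against 13% of such genes.

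RARS, for arginine and part of the complex, lay below the control in all 4 knockdown libraries. It had 117.5 and 122 CPM in the UMUC3 knockdown libraries against 186 CPM in the UMUC3 control. In T24 it had 106 and 117 CPM in the knockdown libraries against 140.3 CPM in the T24 control. Its log2 fold change was -0.49 ± 0.13 in both lines together (edgeR adjusted p = 0.283), -0.64 ± 0.11 in UMUC3 (adjusted p = 0.111) and -0.33 ± 0.11 in T24 (adjusted p = 0.381). In UMUC3 it was called lower by DESeq2, and by edgeR on composition-stable genes alone. With both lines fitted together no member was called, against 0.0145% of all genes; 3 members had an unadjusted p under 0.05 (RARS, KARS and PARS2), DESeq2 called 1 (RARS, lower, against 4.73% of all genes) and limma-voom 0.

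GARS, for glycine, had 15.5 and 9.92 CPM in the UMUC3 knockdown libraries against 6.07 CPM in the UMUC3 control. Its T24 values were 16.0 and 19.0 CPM in the knockdown libraries against 16.6 CPM in the T24 control. At most 0.7% of its counts lay in protein-coding transcripts in any library, and most lay in transcripts that keep an intron, so these values and its level per length do not measure the coding mRNA. NARS, for asparagine, had 31.8 and 27.8 CPM in the UMUC3 knockdown libraries against 30.7 CPM in the UMUC3 control. In the T24 knockdown libraries it read 71.2 and 16.4 CPM against 19.8 CPM in the T24 control. Its T24 log2 fold change of 1.14 ± 0.97 (edgeR adjusted p = 0.689) rested on knockdown library 1, and was -0.28 without it.

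Of the mitochondrial genes, none was called in a knockdown contrast by edgeR's test, against 0.647% of all genes called in either direction in UMUC3, 0.135% in T24 and 0.0579% in the difference. An unadjusted p was under 0.05 for 1 of the 16 in both lines together, 5 in UMUC3, 1 in T24 and 4 in the difference, against 11.6%, 16.8%, 12.5% and 13.5% of all genes. In UMUC3, DESeq2 called 4 of them (EARS2, AARS2 and TARS2 higher, MARS2 lower), against 8.28% of all genes, and limma-voom 0. In T24 and in both lines together, DESeq2 and limma-voom called 0, and in the difference DESeq2 called 2 (AARS2 and MARS2), against 5.41% of all genes, and limma-voom 0. AARS2, the mitochondrial alanyl enzyme, had 25.6 and 21.5 CPM in the UMUC3 knockdown libraries against 12.3 CPM in the UMUC3 control. The T24 knockdown libraries had 21.5 and 19.6 CPM against 27.2 CPM in the T24 control. Its log2 fold change was 0.93 ± 0.22 in UMUC3 (edgeR adjusted p = 0.168), and its difference between the lines was 1.33 ± 0.29 (edgeR adjusted p = 0.227). AARS2 thus lay on the same side of the control as AARS in each line, by a smaller fold.

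MARS2, for methionine, lay on the opposite side of the control to AARS2 in each line. It had 22.7 and 19.99 CPM in the UMUC3 knockdown libraries against 38.2 CPM in the UMUC3 control (log2 fold change -0.84 ± 0.18, edgeR adjusted p = 0.154), and 13.9 and 14.8 CPM in the T24 knockdown libraries against 10.6 CPM in the T24 control (0.43 ± 0.20, adjusted p = 0.481). PARS2, for proline, lay above the control in all 4 knockdown libraries, at 8.08 and 8.03 CPM in the UMUC3 knockdown libraries against 4.41 CPM in the UMUC3 control. In T24 it had 9.36 and 8.61 CPM in the knockdown libraries against 7.05 CPM in the T24 control. Fitted over both lines, its log2 fold change was 0.59 ± 0.23 (edgeR adjusted p = 0.408).

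YARS2, for tyrosine, had 29.3 and 34.1 CPM in the UMUC3 knockdown libraries against 5.91 CPM in the UMUC3 control. Its T24 values were 8.09 and 38.7 CPM in the knockdown libraries against 26.0 CPM in the T24 control. The UMUC3 libraries did not overlap the control, whereas the T24 pair spanned it, and the UMUC3 log2 fold change of 2.42 ± 1.13 did not pass the test (edgeR adjusted p = 0.398). HARS2, for histidine, had 38.4 and 31.9 CPM in the UMUC3 knockdown libraries against 28.7 CPM in the UMUC3 control. In the T24 knockdown libraries it read 5.73 and 35.9 CPM against 24.9 CPM in the T24 control. WARS2, for tryptophan, had 17.2 and 2.53 CPM in the UMUC3 knockdown libraries against 14.3 CPM in the UMUC3 control. The T24 knockdown libraries had 10.1 and 11.1 CPM against 10.7 CPM in the T24 control. For each of these genes a single library lay far from the rest in at least 1 line; HARS2 and HARS fall outside the rule for named genes and were chosen after their values were seen. YARS, the cytosolic tyrosyl gene, had 189.4 and 183 CPM in the UMUC3 knockdown libraries against 152.5 CPM in the UMUC3 control. For T24 it had 129 and 157 CPM in the knockdown libraries against 176 CPM in the T24 control, with no such outlying library in either line.

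Paired knockdown libraries differed by more than 2-fold for 1 of 35 members in UMUC3 (WARS2), against 9.02% of all genes that averaged 5 CPM or more, and for 3 of 35 in T24 (NARS, HARS2 and YARS2), against 8.14%. HARS and HARS2 lie head to head, and the 84 bases between their RefSeq starts, chr5:140691371-140691454 on GRCh38.p14, are shown on the plus strand, the strand of HARS2, because both genes start from this stretch.
HARS-HARS2: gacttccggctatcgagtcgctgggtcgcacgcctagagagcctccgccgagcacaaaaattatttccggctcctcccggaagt
HARS had 154.3 and 144.6 CPM in the UMUC3 knockdown libraries against 115 CPM in the UMUC3 control. In T24 it had 138 and 124 CPM in the knockdown libraries against 137 CPM in the T24 control. In T24 knockdown library 1, where HARS2 read 5.73 CPM, HARS stayed close to its control.

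**Figure D3:**
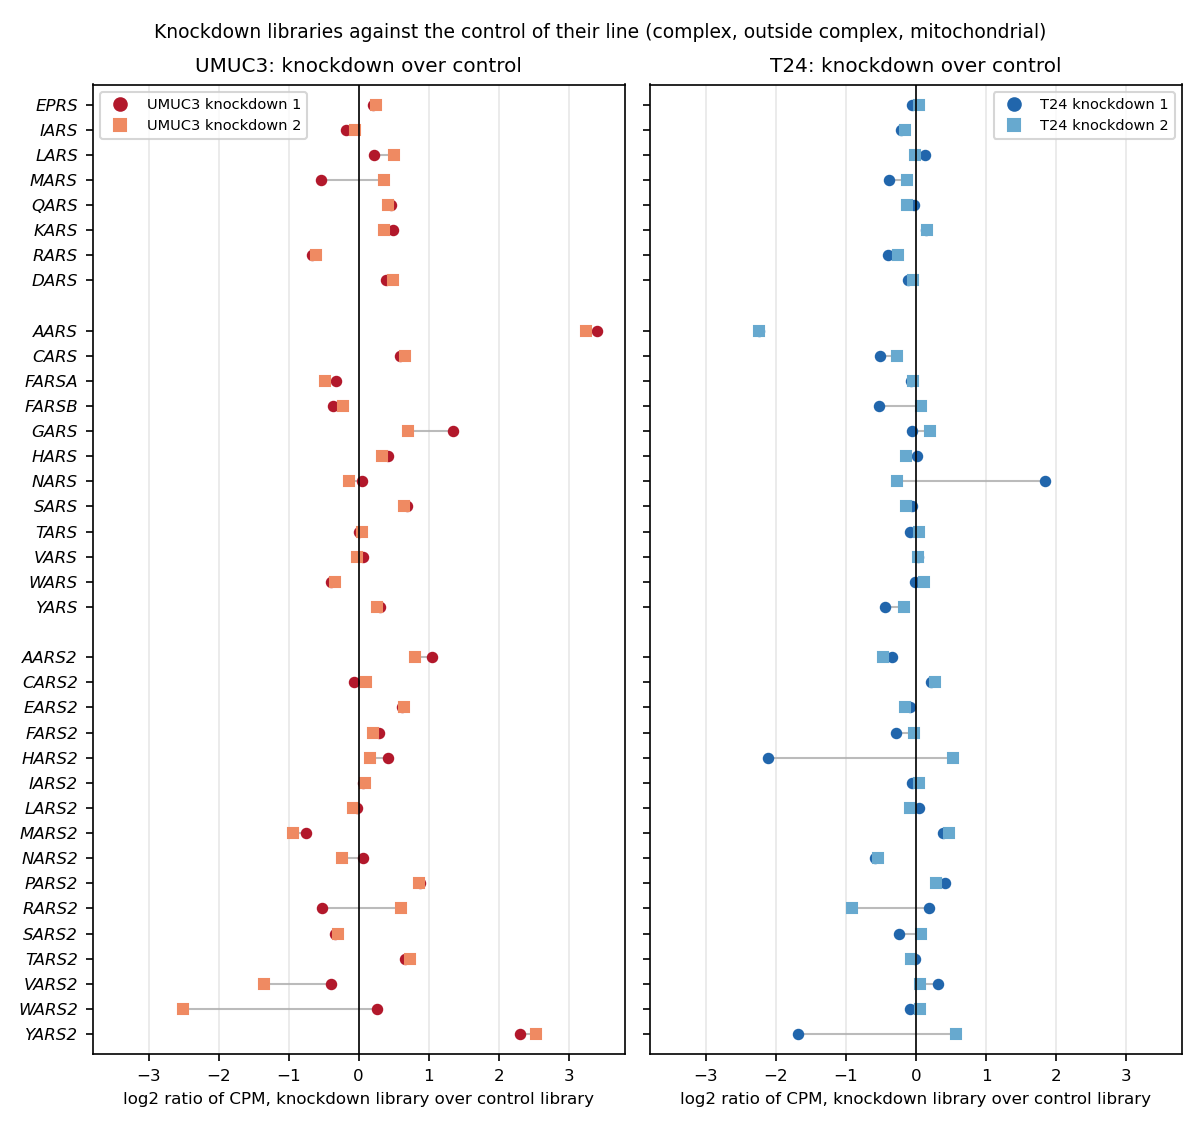
log2 ratio of CPM of each knockdown library over the control of its line, in UMUC3 (left) and T24 (right), for the 36 members grouped by class; a grey line joins the paired knockdown libraries. AARS lies at 3.41 and 3.25 in UMUC3 and at -2.24 and -2.24 in T24, and long grey lines mark WARS2, NARS, HARS2 and YARS2.

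Across the family, both knockdown libraries lay above the control for 20 of the 36 members in UMUC3 and below it for 9, against 35.6% and 37.1% of all tested genes. In T24 both lay above the control for 6 members and below it for 15, against 34.7% and 37.3%. The median log2 fold change in UMUC3 was 0.26 for cytosolic and 0.12 for mitochondrial genes, and in T24 -0.07 and -0.06; over all tested genes the median was 0.00 in each line. The UMUC3 cytosolic median was 0.11 with protein-coding transcripts alone, the UMUC3 mitochondrial one 0.06 with limma-voom or with the replicate number of the column names as a block and 0.08 on composition-stable genes, and the T24 mitochondrial one 0.05 without knockdown library 1 and -0.15 on composition-stable genes. 10 members lay above the control in UMUC3 and below it in T24, against 12.3% of all genes: QARS, DARS, AARS, CARS, SARS and YARS of the cytosol, and AARS2, EARS2, FARS2 and TARS2 of the mitochondrion. The reverse held for 2, MARS2 and VARS2, against 12.1%. KARS and PARS2 lay above the control in both lines, against 13.3% of all genes, and IARS, RARS and FARSA below it in both, against 15.1%. All these sides rest on 1 control per line, and every member of a line shares it.

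No scaffold gene of the complex and no partner of charging passed edgeR's test for knockdown. AIMP1, AIMP2 and EEF1E1, which hold the complex together, had log2 fold changes of -0.05 to 0.22 in UMUC3 and -0.38 to -0.14 in T24. Of these 3, of the 7 factors that deliver charged tRNA to the ribosome and of the 12 genes for other charging and editing steps, edgeR called 0 in UMUC3, in T24, in both lines together or in the difference. By list, an unadjusted p under 0.05 was found for 0, 2 and 1 in UMUC3 and 0, 1 and 2 in T24, against 16.8% and 12.5% of all genes. It was found for 0, 1 and 2 in both lines together and 0, 0 and 1 in the difference, against 11.6% and 13.5%. limma-voom called 0 of them. In UMUC3 and in both lines together, DESeq2 called EEF1A2, an elongation factor, higher. It called GATC, a subunit of the enzyme that makes mitochondrial glutaminyl-tRNA, lower in the same contrasts. DESeq2 called 8.28% of all genes in UMUC3 and 4.73% in both lines together, in either direction. The 20 genes of amino acid stress and supply were listed with earlier results of these data known. Their counts beside the shares of all genes are therefore a description only. Of the 20, edgeR called 0 in UMUC3, 2 in T24, both lower against 0.0434% of all genes, and 0 in the difference. An unadjusted p was under 0.05 for 15 of the 20 in UMUC3, 15 in T24 and 18 in the difference, against the 16.8%, 12.5% and 13.5% of all genes given above. DESeq2 called 10 higher in UMUC3, 8 lower in T24 and 13 higher in the difference, against 8.28%, 4.73% and 5.41% of all genes called in either direction, and limma-voom 0 in each.

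The 2 were ASNS, which makes asparagine, and SLC7A5, a transporter of large neutral amino acids. ASNS had 107 and 102 CPM in the UMUC3 knockdown libraries against 85.7 CPM in the UMUC3 control. Its T24 values were 8.09 and 7.79 CPM in the knockdown libraries against 33.0 CPM in the T24 control (T24 log2 fold change -2.05 ± 0.13, edgeR adjusted p = 0.0491). SLC7A5 fell by 1.09 on the log2 scale in T24 (edgeR adjusted p = 0.0491). Both calls lay close to the threshold, and neither held with the older edgeR method, either replicate block or protein-coding transcripts alone. They were also lost when any 1 of the 4 knockdown libraries was left out. DESeq2 called both lower in T24, and limma-voom called neither. The median log2 fold change of the 20 genes was 0.59 in UMUC3 (18 positive) and -0.60 in T24 (17 negative). Of the 20, 14 lay above the control in UMUC3 and below it in T24, against 12.3% of all genes. Both lists use the same controls and were chosen with earlier results known, so the values stand side by side only.

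The second comparison set UMUC3 against T24, 3 libraries of each, with knockdown as a term. 10 members passed edgeR's test. LARS, VARS, IARS, FARSA, FARS2 and MARS2 were higher in UMUC3, 6 of 36 against 18.9% of all tested genes, and NARS2, KARS, QARS and IARS2 were lower, 4 of 36 against 21.3%. The shares were close to or below those of all genes. The libraries of the lines did not overlap for 15 members, of which 10 were above in UMUC3 (25.1% of all genes) and 5 below (27.2%).

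LARS, for leucine and known also as a leucine sensor for mTORC1, differed most among the cytosolic calls. It had 354 and 432 CPM in the knockdown libraries and 304 CPM in the control of UMUC3, against 190.4 and 173 CPM in the knockdown libraries and 175 CPM in the control of T24 (log2 fold change 1.01 ± 0.13, edgeR adjusted p = 0.00252). VARS, for valine, had 287, 271 and 275 CPM in UMUC3 against 167, 165 and 163 CPM in T24 (0.75 ± 0.09, edgeR adjusted p = 0.00195), each given as knockdown 1, knockdown 2 and control. IARS, for isoleucine, differed by 0.63 ± 0.09 (edgeR adjusted p = 0.00329).

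NARS2, for mitochondrial asparagine, was the member with the lowest fold change. It had 21.2, 17.2 and 20.3 CPM in UMUC3 against 35.2, 36.5 and 53.0 CPM in T24, in the same order of libraries (-1.06 ± 0.18, edgeR adjusted p = 0.00677). KARS had 184.5, 169 and 131 CPM in UMUC3 against 243, 246 and 220.2 CPM in T24 (-0.56 ± 0.11, edgeR adjusted p = 0.0105). IARS2 was lower by edgeR (-0.46 ± 0.10, adjusted p = 0.0132) while its cytosolic partner IARS was higher, and these mirror the pair's ratios per length given above. FARS2, for mitochondrial phenylalanine, had 18.4, 17.4 and 15.1 CPM in UMUC3 against 8.15, 9.76 and 9.98 CPM in T24 (0.87 ± 0.19, edgeR adjusted p = 0.0167). The FARS2 call was lost under 4 of 16 alternatives and that of IARS2 under 2 of 17. The KARS call was lost under 1 of 16, the sum of protein-coding transcripts alone.

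The calls of MARS2 (0.99 ± 0.30, edgeR adjusted p = 0.0438), QARS (-0.46 ± 0.14, edgeR adjusted p = 0.0474) and FARSA (0.45 ± 0.12, edgeR adjusted p = 0.0337) lay nearest to the threshold. They were lost under 11, 10 and 9 of 16 alternatives, and FARSA was -0.04 when only protein-coding transcripts were summed. AARS had the highest line fold change of the family, 1.73 ± 1.40, and did not pass (edgeR adjusted p = 0.375); its libraries overlapped between the lines. That value was 3.14 without the T24 control and 3.15 without the UMUC3 control. With either control out, the line term compared knockdown libraries alone. The value was 0.55 with 1 T24 knockdown library left out, whichever it was, and 0.36 in the fit of 4 groups. These alternatives are given without a test, because the low AARS level in the T24 knockdown libraries, which was in view, is part of each. GARS, at -0.78 ± 0.30, did not pass either (edgeR adjusted p = 0.0895). Among the scaffolds, AIMP2 was lower (-0.95 ± 0.17, edgeR adjusted p = 0.00697) and EEF1E1 higher in UMUC3 (0.89 ± 0.16, adjusted p = 0.00811). Of the 7 delivery factors, EEF1A2 (2.06 ± 0.10, adjusted p = 0.000112), EEF1A1 (0.73 ± 0.14, adjusted p = 0.00992) and TUFM (0.43 ± 0.09, adjusted p = 0.0120) were higher. Of the 12 genes for other charging and editing, XPOT was higher (0.945 ± 0.092, adjusted p = 0.000983). DTD1 (-0.38 ± 0.10, adjusted p = 0.0261) and GATB (-0.63 ± 0.16, adjusted p = 0.0280) were lower. Over all tested genes, edgeR called 18.9% higher and 21.3% lower.

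**Figure D4:**
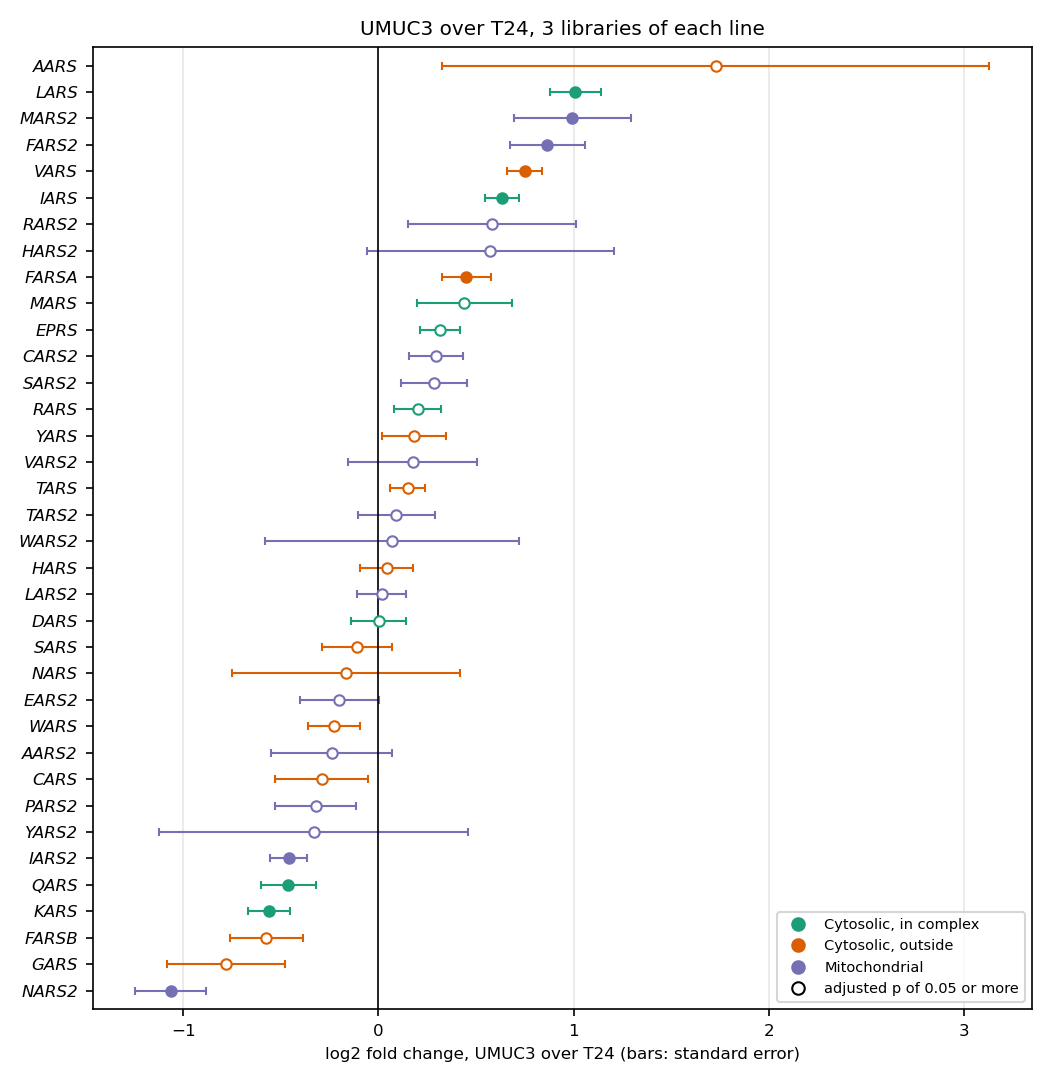
log2 fold change of UMUC3 over T24 with its standard error for each member, from the fit of all 6 libraries, ordered by size and coloured by class; filled symbols passed edgeR's test at an adjusted p under 0.05. The 10 filled symbols run from LARS at 1.01 to NARS2 at -1.06, and AARS and YARS2 have the widest bars.

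The deposited counts are per transcript, so the split of each gene over its transcripts could be read as well. In 16 members at least 90% of the counts lay in protein-coding transcripts in every library, among them EPRS, IARS, RARS, VARS and most mitochondrial genes. In 10 members this share differed by over 20 percentage points between libraries. For MARS, the cytosolic methionyl gene, it was 17.8 and 82.2% in the UMUC3 knockdown libraries against 83.3% in the UMUC3 control. For T24 the share was 87.3 and 79.2% in the knockdown libraries against 90.1% in the T24 control. For KARS it was 28.6 and 70.5% in the UMUC3 knockdown libraries against 87.7% in the UMUC3 control. For T24 the share was 39.6 and 98.5% in the knockdown libraries against 77.4% in the T24 control. For TARS it was 55.8 and 53.8% in the UMUC3 knockdown libraries against 50.5% in the UMUC3 control. For T24 the share was 46.3 and 96.9% in the knockdown libraries against 97.5% in the T24 control. In each of these genes the paired knockdown libraries of at least 1 line lay apart from each other.

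For KARS the counts sat mainly in ENST00000302445, a coding transcript of 2005 bases, and in ENST00000564578, a transcript of 1942 bases annotated as subject to nonsense-mediated decay. The decay transcript had 7227 and 2737 counts in the UMUC3 knockdown libraries against 680 in the UMUC3 control. The T24 counts were 7918 and 0 in the knockdown libraries against 2661 in the T24 control. The coding one had 2578 and 6618 counts in the UMUC3 knockdown libraries against 5816 in the UMUC3 control. The T24 counts were 5110 and 13155 in the knockdown libraries against 9157 in the T24 control. The gene sum of KARS differed by 0.12 and 0.02 on the log2 scale between the paired knockdown libraries of UMUC3 and T24, far less than its transcripts did. At least 20% of a gene's counts changed transcript between libraries of a line in 14 of 33 members in UMUC3 and 19 of 33 in T24, against 53.4% and 53.2% of all genes with at least 2 transcripts. The authors' assignment of reads to transcripts of nearly equal sequence can set such shares, and its part in them was not tested.

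**Figure D5:**
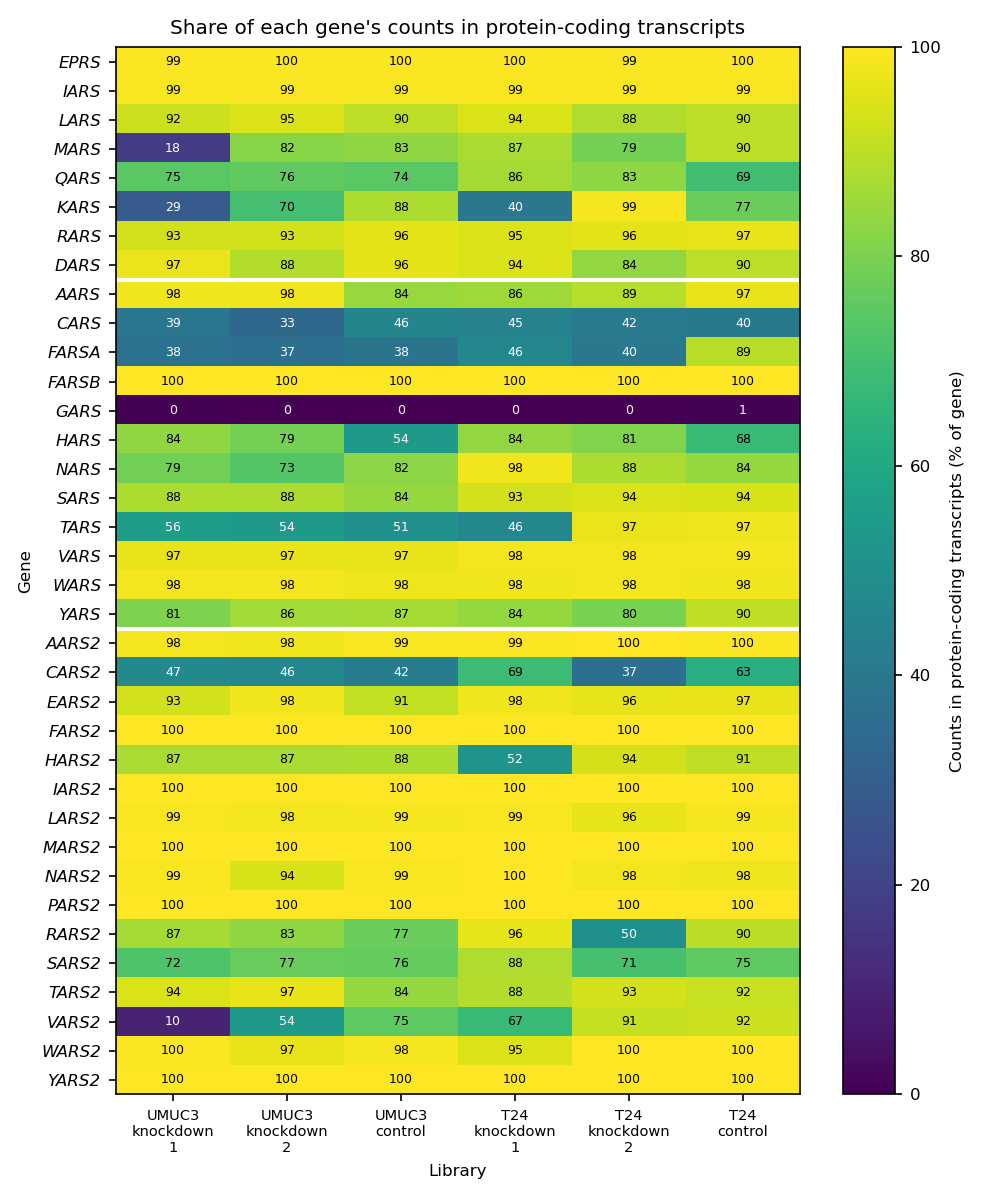
Share of each member's counts in protein-coding transcripts, in percent, by library; white lines separate the complex, the other cytosolic genes and the mitochondrial genes. GARS lies at or near 0% in all 6 libraries, and MARS, KARS, TARS, FARSA and VARS2 change between libraries.

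Reads of neighbouring genes could enter some of these sums. Of the members, 22 overlap a gene on the opposite strand and 6 a gene on the same strand that also has rows in the table; MARS overlaps DDIT3, a stress gene, and HARS overlaps HARS2. The sources used here do not say whether the counting used strand, so reads of such partners cannot be told apart.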

How the data were processed

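The authors deposited a table of raw counts per transcript for 6 libraries, not normalised. The submitters' processing notes name StringTie 1.3.3b, HISAT2 2.1.0, FastQC 0.11.5 and hg38 without their roles. No source used here tells which of them made the counts or how RNA was selected. Of 136953 transcripts, 15038 carry no gene and were left out (14.9 to 16.1% of the counts of a library); the rest were summed to 30717 genes. TPM used GENCODE 29 transcript lengths, and gene coordinates are from that annotation on GRCh38.

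The 20721 genes that reached 10 counts in 2 or more libraries and 30 in all were tested. edgeR 4.0.16 in R 4.3.3 (TMM, robust quasi-likelihood fit, Benjamini-Hochberg at 0.05) was fitted to all of them: both lines with terms for line and knockdown, which also gave the line effect, and 4 groups for each line and their difference. CPM use TMM factors. The fit was tested on simulated data. DESeq2 1.42.0, limma 3.58.1 and other settings were tried as alternatives. Depth was 65111683 to 72362436 counts per library, and the number of libraries limits the precision.

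The members, lists and tests were chosen with earlier results of these data known. Named genes are members past the threshold in any contrast, the 3 cytosolic and 3 mitochondrial members with the largest absolute fold change per contrast among those with a mean of at least 5 CPM, the 3 highest and lowest per length of each class, and the cytosolic and mitochondrial partners of the first groups; not each such partner is given values here. A gene's composition shift compares its libraries within a line pair by pair and takes the largest share of counts found under another transcript; below 0.2 it is called stable. Promoter sequences are from RefSeq, GRCh38.p14, and 1 promoter is not reported here.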

Additional observations from a re-analysis of the deposited data

Results flagged for a closer look

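AARS lay on opposite sides of the control in the lines: both UMUC3 knockdown libraries were above theirs and both T24 knockdown libraries below theirs. The log2 fold change for UMUC3 minus T24 was 5.57 ± 0.19 in the edgeR fit. The difference is given without a test, because the T24 direction was known when the family was chosen and the same value is part of it. Each line has 1 control library. The log2 difference ran from 5.49 to 5.90 over the 14 alternatives.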

How the results depend on the processing

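The number of members called for knockdown depended on the test and on single libraries. In both lines together it was 0, and 1 with DESeq2 (RARS, against 4.73% of all genes). Leaving out a library gave 0 to 1, with AARS called, higher or lower, once either control was out. Nothing is read from the call without the UMUC3 control, which rests on the T24 value in view. In UMUC3 it was 1, against 7 with DESeq2 (8.28% of all genes) and 4 among the 13 composition-stable members (13% of such genes). It was 0 with limma-voom, with either replicate block and with protein-coding transcripts alone, where 0 of all genes were called as well. Leaving out a library gave 0 to 1. In T24 AARS, whose value was in view, is left out. Of the other 35 members edgeR called 0 there, and no alternative called any that it covered. With limma-voom, either replicate block, the older edgeR method and protein-coding transcripts alone, 0, 0, 0, 2 and 1 of all genes were called. In the difference AARS is left out as well. Of the other 35 members edgeR called 0, whereas DESeq2 called SARS, CARS, AARS2 and MARS2 (5.41% of all genes). The number was 0 with limma-voom and either replicate block, where 0 of all genes were called. Leaving out a library gave 0. Under the settings with 0 of all members called, those with an unadjusted p under 0.05 numbered 11 to 15 in UMUC3, 1 to 6 in T24 and 5 to 11 in the difference. AARS is not set apart in these counts, and nothing is read from it in T24 or the difference. For the line effect the number of members called was 10 (40.2% of all genes). It was 14 with the line effect in the fit of 4 groups (41.4%) and 12 with DESeq2 (47.1%). Among the 13 composition-stable members it was 4 (54.4% of such genes), and with either replicate block 7 (32.9% and 33%). With a library left out it was 5 to 10 (28.3% to 34.7%), the 5 without knockdown library 2 of either line. The older edgeR method and the protein-coding sums were added after seeing the data.

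Signs turned for FARSA (line effect -0.035 with protein-coding transcripts alone), for NARS without T24 knockdown library 1 (both lines -0.14, T24 -0.28, difference 0.23) and without the T24 control (both lines -0.041), for YARS2 without the UMUC3 control (both lines -0.15), and for the T24 median of the mitochondrial members without T24 knockdown library 1 (0.048). AARS kept its direction in UMUC3, T24 and the difference under every alternative run, at 3.25 to 3.52, -2.38 to -2.23 and 5.49 to 5.90. The T24 values and the differences are given without a test. Where its UMUC3 call was lost, the cause was not tested. The differences between libraries 1 and 2 of UMUC3 and T24 correlated at 0.011 over 20721 genes. Each difference is between single libraries, so the value cannot show whether a number stands for the same siRNA in both lines. The block by title number could be fitted in the 4 groups only with the older edgeR method. Effects in a line without its control were not run. No p-value here covers more than 2 knockdown libraries and 1 control per line.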
